A study of Mus musculus with 6 samples.

Results

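The 9 genes described here encode receptors of the kind first known from natural killer (NK) cells: Ncr1, Cd160, Cd244a, Klrk1, Klrc1, Klrd1, Klrb1c, Klrb1b and Klrb1f. They were taken by symbol from a table of 33157 gene rows, where each has 1 row, and all 9 were among the 13483 genes tested. They were proposed with the comparison below already known, 3 of them because they stood out in it. Their fold changes and adjusted p-values are therefore a description of how the genes came to be chosen and carry no weight as independent tests.

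RNA was measured in group 3 innate lymphoid cells (ILC3s), lymphocytes of the gut wall without antigen receptors, sorted from wild-type mouse small intestine by surface markers (CD45+, lineage-negative, CD127+, KLRG1-negative, high in CD90.2) and kept in culture for 4 h. In 1 group the cultures held IFN-γ at 20 ng/mL together with IGF-1 at 200 ng/mL (3 libraries). In the other they held IFN-γ at 20 ng/mL without IGF-1 (3 libraries), which the labels call control. Every culture was exposed to IFN-γ, and no culture free of it was analysed here. The labels number the libraries of each group but say nothing of separate animals or cultures, so each p-value covers the spread among 3 libraries a group, possibly technical. The sources used here give no age, sex or strain of mouse. Total counts ran from 36171528 to 39206449 with IGF-1 and from 32573713 to 38076876 without it. ILC3 markers were present in each library. Kit, a receptor tyrosine kinase gene used as an ILC3 marker, lay at 639 to 688 CPM (read counts scaled to library size with edgeR's TMM factors) with IGF-1 and at 605 to 764 CPM without it.

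NK-type receptors read the state of neighbouring cells. Activating receptors carry little signalling sequence of their own and couple to small adaptor proteins such as DAP12, DAP10 or the Fc receptor gamma chain, while inhibitory receptors recruit phosphatases such as SHP-1. One structural class has immunoglobulin-like domains (NKp46 from Ncr1, CD160 from Cd160 and 2B4 from Cd244a). The other has a C-type lectin-like domain and is encoded together in the NK gene complex. In the gut, NKp46 marks a subset of ILC3s that also depends on the factor T-bet.

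The 6 lectin-type genes lie on mouse chromosome 6, among other genes of the NK gene complex. Klrd1 and Klrk1 are direct neighbours there among protein-coding genes in RefSeq, as are Klrb1c and Klrb1b. Ncr1 lies on chromosome 7, Cd160 on chromosome 3 and Cd244a on chromosome 1. RefSeq promoter entries (250 bases before to 50 after an annotated start, build GRCm38.p6) matched 8 of the 9 genes, with 11 entries in all. The study's own build is GRCm39, so these positions apply to the sequences alone and not to the counts. The entries of Ncr1, Cd160 and Cd244a are shown because their transcripts stood higher with IGF-1, and that of Klrk1 because its groups overlapped. Capitals mark each TGTGGT, the core letters bound by RUNX factors, or ACCACA, the same letters on the other strand.
Ncr1 promoter, chr7:4337465-4337764, strand +: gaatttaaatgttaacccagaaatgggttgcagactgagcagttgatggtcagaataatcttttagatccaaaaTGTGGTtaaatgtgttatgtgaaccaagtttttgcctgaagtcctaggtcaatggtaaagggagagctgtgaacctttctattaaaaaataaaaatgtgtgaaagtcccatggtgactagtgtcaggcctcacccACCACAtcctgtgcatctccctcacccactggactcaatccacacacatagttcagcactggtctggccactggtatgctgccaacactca
Cd160 first promoter, chr3:96814472-96814771, strand -: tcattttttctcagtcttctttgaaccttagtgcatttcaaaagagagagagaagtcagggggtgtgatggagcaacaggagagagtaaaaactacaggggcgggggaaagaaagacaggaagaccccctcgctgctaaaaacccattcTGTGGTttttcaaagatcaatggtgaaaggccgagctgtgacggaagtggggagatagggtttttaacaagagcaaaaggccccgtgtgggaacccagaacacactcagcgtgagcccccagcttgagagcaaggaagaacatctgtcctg
Cd160 second promoter, chr3:96829302-96829601, strand -: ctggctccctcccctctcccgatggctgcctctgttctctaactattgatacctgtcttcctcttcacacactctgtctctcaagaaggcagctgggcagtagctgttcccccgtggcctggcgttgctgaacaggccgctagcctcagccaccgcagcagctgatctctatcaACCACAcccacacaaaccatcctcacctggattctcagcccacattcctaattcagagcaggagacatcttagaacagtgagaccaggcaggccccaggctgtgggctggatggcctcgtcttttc
Cd244a promoter, chr1:171558943-171559242, strand +: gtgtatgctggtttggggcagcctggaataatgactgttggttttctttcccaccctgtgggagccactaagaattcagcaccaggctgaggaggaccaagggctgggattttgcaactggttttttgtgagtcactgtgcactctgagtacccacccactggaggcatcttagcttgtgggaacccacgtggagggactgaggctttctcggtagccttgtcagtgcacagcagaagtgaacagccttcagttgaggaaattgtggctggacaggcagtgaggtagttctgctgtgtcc
Klrk1 promoter, chr6:129623815-129624114, strand -: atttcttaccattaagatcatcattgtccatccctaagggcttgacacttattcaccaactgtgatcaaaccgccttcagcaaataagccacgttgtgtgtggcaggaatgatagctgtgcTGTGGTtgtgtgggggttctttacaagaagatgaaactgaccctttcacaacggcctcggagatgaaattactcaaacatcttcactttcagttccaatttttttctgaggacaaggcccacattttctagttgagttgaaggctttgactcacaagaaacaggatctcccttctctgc

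The RUNX letters TGTGGT, read on both strands, occurred in 7 of the 11 entries and in 5 genes: Ncr1, Cd160, Klrk1, Klrc1 and Klrb1c. Of 32851 mouse promoter entries of the same length, 16.8% held them. The Ncr1 entry shown held 2 matches, from -176 to -171 and from -41 to -36 relative to the start. Its other annotated start is so close that it shares both. Each of the Cd160 entries held 1 match, and the Cd244a entry held none. Since Klrk1, Klrc1 and Klrb1c carry the letters too, the match did not divide the genes that stood higher from those that did not. The ETS letters AGGAAG occurred in 6 of the 11 entries and in 4 genes, against 35.4% of all entries (the Klrb1b entries, whose starts lie close together, hold the same matches), and the T-box letters GGTGTGA in 1, a Cd160 entry, against 3.98% of all. The letters GTAAACA, bound by FOXO factors, occurred in none of the 11, against 3.65% of all. No match overlapped one of another motif, and 2 ETS matches of Klrb1c overlapped each other. A match is a string of letters and says nothing of binding in these cells.

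**Figure D1:**
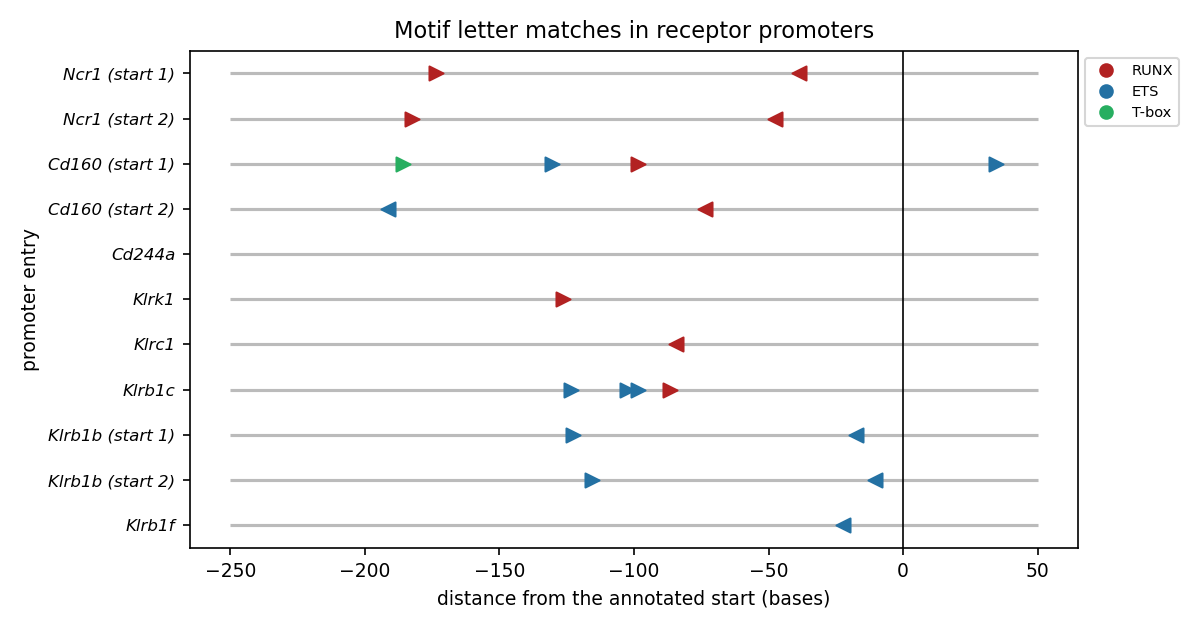
Matches to 3 motifs in the 11 RefSeq promoter entries of 8 receptor genes, by distance from the annotated start in bases. Triangles point right for the gene's own strand and left for the opposite strand; RUNX letters appear in 7 entries, ETS letters in 6, T-box letters in 1, and the Cd244a line is empty.

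Transcripts of the 3 immunoglobulin-type receptors were more than doubled in cultures with IGF-1, while the 6 lectin-type receptor genes differed by 31.2% or less in either direction. Those 3 were picked because they stood out in this comparison, so the split restates the choice and shows no effect of receptor class. Among 14 other tested rows of immunoglobulin, SLAM and checkpoint receptors, 7 had positive and 7 negative log2 fold changes. Summed over the 3 immunoglobulin-type genes, the level was 187, 229 and 215 CPM in the libraries with IGF-1 and 86.4, 76.4 and 81.8 CPM in those without. Summed over the 6 lectin-type genes it was 1643, 1617 and 1471 CPM with IGF-1 and 1726, 1470 and 1472 CPM without, and these ranges overlap. In bulk RNA a larger share of cells that carry a receptor and more of its RNA per cell cannot be told apart.

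Ncr1 encodes NKp46, an activating receptor of NK cells, ILC1s and part of the ILC3s. Its level was 68.4, 66.9 and 79.1 CPM with IGF-1 and 29.5, 27.8 and 27.4 CPM without. The groups did not overlap, and the lowest library with IGF-1 stood 2.27 times above the highest without it. The log2 fold change was 1.34 (SE 0.14), a difference of 153%, with an adjusted p of 0.00903 in edgeR's quasi-likelihood fit over all genes. The 3 libraries without IGF-1 lay close together (coefficient of variation 3.84%, against 9.26% with IGF-1).

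Cd160 encodes a receptor that binds the TNF receptor family member HVEM. It stood at 67.2, 101 and 72.3 CPM with IGF-1 and at 31.1, 22.4 and 32.9 CPM without. Every library with IGF-1 was above every library without it, and the second library of each group was the extreme one, high with IGF-1 and low without. The log2 fold change was 1.48 (SE 0.20), the highest of the 9, with an adjusted p of 0.0201. Its spread within groups was wider than that of Ncr1, at 22.8% of the mean with IGF-1 and 19.5% without.

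Cd244a encodes 2B4, a SLAM family receptor for CD48 that can activate or inhibit depending on the adaptor it meets. Its level was 51.3, 61.0 and 63.2 CPM with IGF-1 and 25.9, 26.3 and 21.5 CPM without. The groups were apart, with a ratio of 1.95 between the lowest library with IGF-1 and the highest without. The log2 fold change was 1.25 (SE 0.16), with an adjusted p of 0.0143. Profiles of Ncr1 and Cd244a over the 6 libraries, each centred on its own mean, differed by a root mean square of 0.12 on the log2 scale, the closest pair among the 9. Cd160 differed from Ncr1 by 0.29 and from Cd244a by 0.31. The difference between the groups enters this measure, and Ncr1, Cd160 and Cd244a were picked because of that difference. Their closeness among the 9 therefore largely restates the choice and carries no weight as a separate finding.

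Among the lectin-type genes, Klrk1 encodes NKG2D, an activating receptor for stress-induced ligands. It stood at 357, 384 and 340.0 CPM with IGF-1 and at 355, 293 and 284 CPM without. The first library without IGF-1 reached the range of those with it, and the log2 fold change was 0.21 (SE 0.13, adjusted p = 0.560).

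Klrc1 and Klrd1 encode NKG2A and CD94, which pair into an inhibitory receptor for the class I molecule Qa-1. Klrc1 stood at 47.6, 47.7 and 55.8 CPM with IGF-1 and at 40.7, 36.02 and 38.5 CPM without. Its groups did not overlap, but its log2 fold change of 0.39 (SE 0.14) had an adjusted p of 0.293. Klrd1 was low, at 5.36, 8.24 and 7.37 CPM with IGF-1 and 9.77, 5.02 and 5.43 CPM without. Its highest value was the first library without IGF-1, and the log2 fold change was 0.05 (SE 0.35, adjusted p = 0.975). The fold change of Klrd1 turned negative without IGF-1 replicate 2 (-0.09), control replicate 2 (-0.12) or control replicate 3 (-0.08).

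The Klrb1 genes encode NKR-P1 receptors, which bind Clr proteins encoded beside them. Klrb1b, whose product is inhibitory, was by far the most abundant of the 9, at 1173, 1122 and 1011 CPM with IGF-1 and 1259, 1080 and 1084 CPM without. The groups overlapped, and the log2 fold change was -0.05 (SE 0.11, adjusted p = 0.913). It was positive, at 0.0084 and 0.027, without IGF-1 replicate 3 or control replicate 1. Klrb1c, which encodes the activating NK1.1 antigen, was at 26.7, 29.6 and 35.8 CPM with IGF-1 and 42.5, 32.9 and 39.3 CPM without. The third library with IGF-1 overlapped the group without, and the log2 fold change was -0.32 (SE 0.17, adjusted p = 0.513). Klrb1f, another activating member, was at 32.5, 25.7 and 21.1 CPM with IGF-1 and 18.4, 22.9 and 20.6 CPM without, with a log2 fold change of 0.36 (SE 0.20, adjusted p = 0.541). The third library with IGF-1 lay inside the range of the group without.

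**Figure D2:**
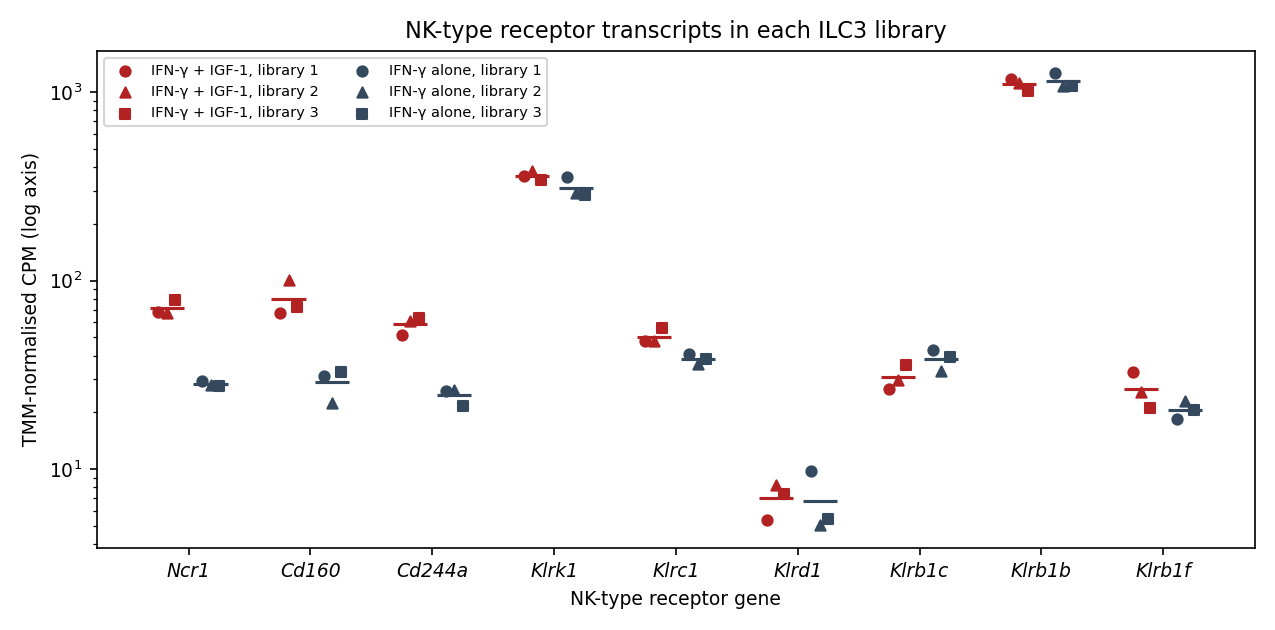
TMM-normalised CPM (log axis) of the 9 NK-type receptor genes in each of the 6 libraries, with a line at each group's mean. Ncr1, Cd160 and Cd244a lie at 51.3 to 101 CPM with IGF-1 and at 21.5 to 32.9 CPM without, whereas 5 of the 6 Klr genes have overlapping groups.

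At an adjusted p under 0.05 in edgeR, 3 of the 9 genes stood higher and 0 lower, beside 0.23% of all tested genes higher and 0.267% lower. Groups without overlap were found for 4 of the 9, all higher, beside 8.81% of all genes higher and 9.17% lower. At an unadjusted p under 0.05 there were 4 higher and 0 lower, beside 5.58% and 6.24% of all genes. Nothing is read from these counts, because the genes were picked on the same values. DESeq2 and limma-voom passed the same 3 genes. The calls were not stable when 1 library was left out. Ncr1 passed in 3 of the 6 such fits, and Cd160 and Cd244a in 1 each, the fit without control replicate 1. Over all genes these 6 fits called 0 to 24 higher and 0 to 31 lower, against 31 and 36 with all libraries. The log2 fold changes over those 6 fits stayed between 1.26 and 1.38 for Ncr1, 1.27 and 1.59 for Cd160, and 1.17 and 1.34 for Cd244a, while the adjusted p reached 0.0718, 0.122 and 0.122.

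**Figure D3:**
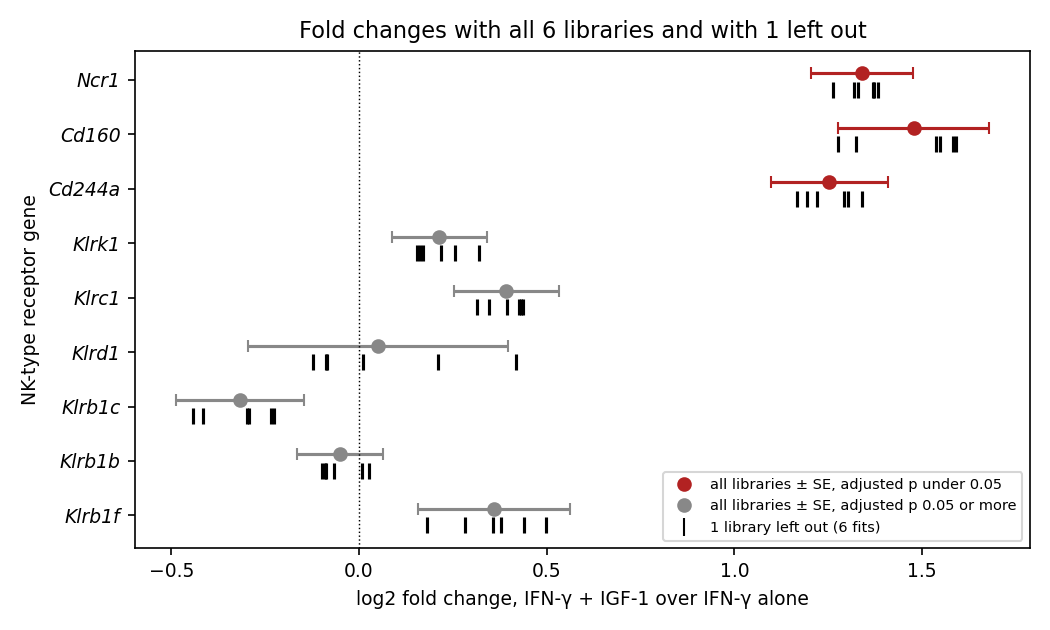
Log2 fold change of each receptor gene, with IGF-1 over without it (IFN-γ in both). Points are fits to all 6 libraries with SE bars, and ticks below each point are the 6 fits with 1 library left out. The ticks of Ncr1, Cd160 and Cd244a all lie above 1, and those of Klrd1 and Klrb1b fall on both sides of 0.

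To compare levels between genes, CPM was divided by the merged exon length in GENCODE M21, an annotation on another build whose exons may differ from those counted. With IGF-1, Klrb1b was highest at 494.5 ± 37.3 CPM per kb (SD, n = 3), followed by Klrk1 at 50.2 ± 3.08 and Ncr1 at 46.4 ± 4.30, a pair within 1 SD of each other. Cd160 (30.3 ± 6.90) and Klrc1 (25.4 ± 2.36) came next, again within their spread, then Klrb1f (13.1 ± 2.84), Cd244a (12 ± 1.3), Klrb1c (10.4 ± 1.57) and Klrd1 (5.46 ± 1.154). Without IGF-1, Klrb1b stood at 512 ± 45.9 and Klrk1 at 43.3 ± 5.36 CPM per kb. Klrc1 (19.4 ± 1.18) and Ncr1 (18.3 ± 0.70) followed, within their spread, and then Klrb1c (12.9 ± 1.65), Cd160 (10.9 ± 2.13), Klrb1f (10.2 ± 1.12), Klrd1 (5.26 ± 2.06) and Cd244a (5.04 ± 0.54). Cd244a was thus the lowest of the 9 per length without IGF-1, level with Klrd1.

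Some of the lectin-type genes share sequence with other annotated genes, and the sources used here do not say how reads matching several genes were counted. Of all 50-base windows in GENCODE M21 transcripts, 38.6% of those of Klrc1, 27.2% of those of Klrb1b and 17.0% of those of Klrb1c recur exactly in another gene. For Klrc1 the main partner is Klrc2 (36.6%). For Klrb1b (25.5%) and Klrb1c (12.4%) it is Gm44511, a gene model annotated on the same strand across 599 exon bases of Klrb1b and 413 of Klrb1c, so these windows lie mostly in overlapping annotation. Gm44511 has no row under that symbol in the count table. How far shared windows affect the counts of Klrc1, Klrb1b and Klrb1c is uncertain. Cd160 shares 0.720% of its windows, with Pdzk1, a gene on the opposite strand that overlaps it by 68 bases and had at most 1.82 CPM in any library. Ncr1, Cd244a, Klrk1, Klrd1 and Klrb1f share 0 windows.

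Of 21 further lectin-type receptor genes, 10 passed the filter on low counts and 0 passed the test in either direction by edgeR, DESeq2 or limma-voom, with 0 at an unadjusted p under 0.05. Their median log2 fold change was 0.33, beside -0.01 over all genes tested. Klra1, Klra3, Klra6, Klra8, Klra9 and Klra10, genes of the Ly49 receptors of NK cells, had no count in any library. Klri2 had the most counts of the list, at 54.4, 37.5 and 34.6 CPM with IGF-1 and 42.1, 39.3 and 32.3 CPM without (0.15, SE 0.20), and these groups overlapped. The 3 smallest p among those averaging 1 CPM or more belonged to Klri1 (0.87, SE 0.45, adjusted p = 0.487), Klrc2 (0.48, SE 0.30, adjusted p = 0.596) and Klrb1a (0.97, SE 0.72, adjusted p = 0.663). Klrc2, which shares the most windows with Klrc1, was at 6.64, 9.48 and 11.5 CPM with IGF-1 and 5.37, 6.64 and 7.83 CPM without. These groups overlapped.

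Receptors of the immunoglobulin, SLAM and checkpoint families moved in both directions. Of 21 listed genes, 14 rows were tested, 7 with positive and 7 with negative values, and their median log2 fold change was 0.02. At an unadjusted p under 0.05 there were 3 higher and 4 lower of the 14, beside 5.58% and 6.24% of all genes. The groups did not overlap for 5 higher and 4 lower, beside 8.81% and 9.17% of all genes. Fcgr3, which encodes the low-affinity IgG receptor CD16, fell to 153, 135 and 152 CPM with IGF-1, against 287, 216 and 262 CPM without (-0.80, SE 0.14, adjusted p = 0.0392). It was the sole gene of this list to pass, and it did not pass in any of the 6 fits with 1 library left out (adjusted p from 0.0622 to 0.226). Ly9, a SLAM family member like Cd244a, was at 28.5, 31.9 and 26.1 CPM with IGF-1 and 15.8, 14.6 and 21.3 CPM without. Its groups did not overlap, and its log2 fold change was 0.74 (SE 0.20, adjusted p = 0.168). Cd226, the DNAM-1 activating receptor, stood at 165, 162 and 173 CPM with IGF-1 and 121, 131 and 123 CPM without (0.42, SE 0.11, adjusted p = 0.169). DESeq2 passed Ly9 and Cd226 as well as Fcgr3.

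Adaptors for these receptors were not called. Of 22 adaptor and signalling genes 20 were tested, 14 with positive values, with a median log2 fold change of 0.14, and 0 passed in edgeR or limma-voom. At an unadjusted p under 0.05 there were 7 higher and 0 lower of the 20, beside 5.58% and 6.24% of all genes. DESeq2 passed 1, Lck. Fcer1g, the Fc receptor gamma chain that NKp46 and CD16 use, was very abundant, at 3464, 3811 and 2242 CPM with IGF-1 and 2510, 2538 and 1993 CPM without (0.43, SE 0.18, adjusted p = 0.376). Tyrobp, which encodes DAP12, was at 25.8, 26.97 and 17.0 CPM with IGF-1 and 17.0, 17.5 and 12.9 CPM without (0.56, SE 0.23, adjusted p = 0.366). Hcst, the DAP10 adaptor of NKG2D, was at 156, 169 and 96.0 CPM with IGF-1 and 138, 123 and 107 CPM without (0.20, SE 0.20, adjusted p = 0.777). In all 3 genes the third library was the lowest of its group, and the groups overlapped.

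The SLAM adaptors differed in abundance. Sh2d1b1, which encodes EAT-2, was at 35.1, 34.1 and 23.7 CPM with IGF-1 and 24.3, 22.3 and 14.8 CPM without (0.60, SE 0.23, adjusted p = 0.334). Sh2d1a, which encodes SAP, was too low to test, with at most 0.70 CPM in any library. Cd247, the CD3 zeta chain that NKp46 can also use, was at 1.03, 1.57 and 1.82 CPM with IGF-1 and 2.39, 3.74 and 3.06 CPM without (-1.06, SE 0.52, adjusted p = 0.466). By p the leading signalling genes were the kinase gene Lck (204, 212 and 224 CPM with IGF-1 and 167, 149 and 127 CPM without, 0.53, SE 0.13, adjusted p = 0.137), the SHP-1 phosphatase gene Ptpn6 (0.36, SE 0.11, adjusted p = 0.229) and Lat (0.50, SE 0.17, adjusted p = 0.286).

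Ligand genes of the receptors were measured in the same cells. Of 15 listed ligand genes 7 were tested (4 symbols were not matched to the table and are not analysed here), and 0 passed in edgeR or limma-voom. At an unadjusted p under 0.05 there were 0 higher and 1 lower, beside 5.58% and 6.24% of all genes. DESeq2 passed the lower gene, H2-T23. H2-T23, which encodes the Qa-1 ligand of CD94-NKG2A, was at 379, 404 and 421 CPM with IGF-1 and 585, 619 and 529 CPM without. Its groups did not overlap, and its log2 fold change was -0.53 (SE 0.11, adjusted p = 0.0938). Cd48, the ligand of 2B4, stood at 158, 166 and 119 CPM with IGF-1 and at 124, 124 and 120 CPM without (0.27, SE 0.14, adjusted p = 0.508). Tnfrsf14, the HVEM partner of CD160, had at most 4.14 CPM in any library (-0.12, SE 0.67, adjusted p = 0.970), and its sign depended on which library was left out. H60b, an NKG2D ligand gene, was at 2.06, 1.42 and 4.38 CPM with IGF-1 and 4.22, 4.42 and 5.01 CPM without (-0.79, SE 0.48, adjusted p = 0.574). The Clr genes Clec2d (-0.35, SE 0.32, adjusted p = 0.741) and Clec2i (0.11, SE 0.15, adjusted p = 0.836) did not pass.

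Among 17 tested genes for factors and cytokine receptors linked to NK-type receptor expression, 0 passed by edgeR, DESeq2 or limma-voom. Of the 17, 2 were higher and 2 lower at an unadjusted p under 0.05, beside 5.58% and 6.24% of all genes. Their median log2 fold change was -0.04. Tbx21, the T-bet gene, was at 20.8, 26.8 and 21.99 CPM with IGF-1 and 26.6, 14.3 and 17.3 CPM without (0.26, SE 0.24, adjusted p = 0.758). Runx3 was at 389, 358 and 390 CPM with IGF-1 and 368, 437 and 430.1 CPM without (-0.12, SE 0.12, adjusted p = 0.767). By p the leading genes were Ikzf3 (0.48, SE 0.14, adjusted p = 0.192), Notch2 (-0.54, SE 0.21, adjusted p = 0.321), which encodes a Notch receptor, and Ahr (-0.47, SE 0.19, adjusted p = 0.360), which encodes the aryl hydrocarbon receptor. Ahr stood at 62.9, 45.8 and 68.4 CPM with IGF-1 and 73.1, 70.6 and 101 CPM without, and its groups did not overlap.

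**Figure D4:**
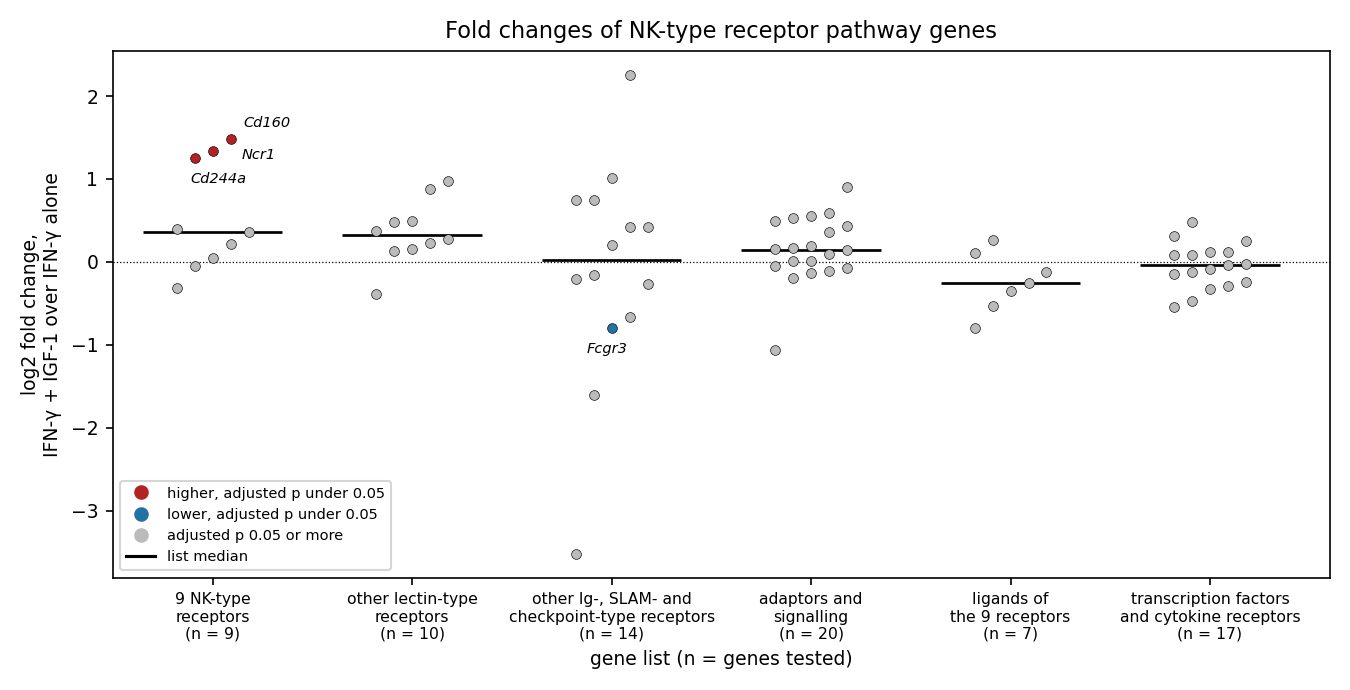
Log2 fold change, with IGF-1 over without it, of each tested gene in 6 lists, with a line at the list median. Beyond the 3 receptors picked on these values, Fcgr3 is marked as lower, and every other gene is grey.

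**Figure D5:**
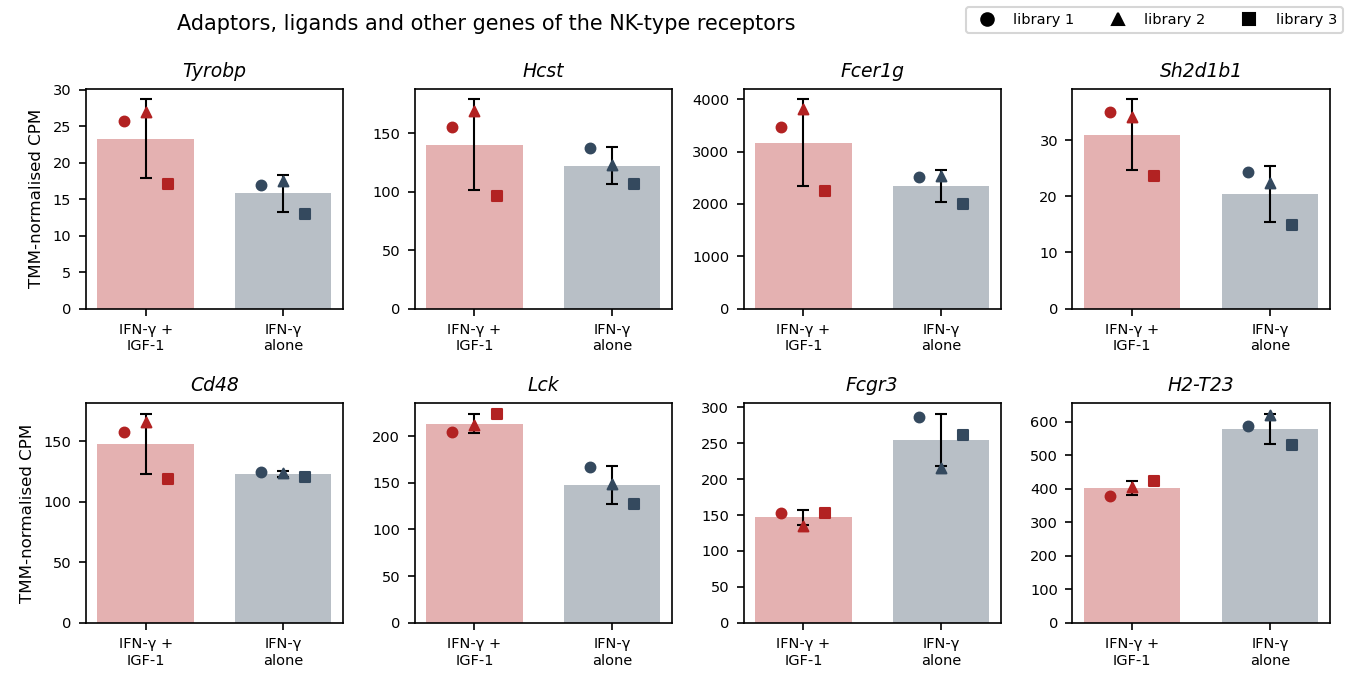
TMM-normalised CPM of 8 genes in each library, with bars at the group mean and error bars of 1 SD (n = 3). The adaptor genes Tyrobp, Hcst, Fcer1g and Sh2d1b1 have their lowest value in library 3 in both groups, while Lck, Fcgr3 and H2-T23 have groups that do not overlap.

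Over these 5 lists, 68 of 98 listed genes were tested. The other 30 include 4 ligand symbols and 1 factor symbol not matched to the table, besides genes with counts too low to test. Of the 68, 39 had positive and 29 negative values, and 0 were higher and 1 lower by edgeR. The groups did not overlap for 12 higher and 9 lower, beside 8.81% and 9.17% of all genes. At an unadjusted p under 0.05 there were 12 higher and 7 lower, beside 5.58% and 6.24% of all genes. DESeq2 passed 3 higher and 2 lower, beside 210 and 271 of the 14202 genes to which it gave an adjusted p. Ncr1, Cd160 and Cd244a were picked on these values, so their fold changes are no yardstick for the 68. Some low genes had larger fold changes that did not pass. Examples are Tigit (-3.51, SE 1.16, adjusted p = 0.251) and Lair1 (2.26, SE 1.28, adjusted p = 0.542).

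Markers of other lymphocytes were set beside the receptors, since NK cells and ILC1s carry the same receptors. Eomes, the defining factor of NK cells, and Klra8 had no count in any library, and S1pr5, Klra4 and Klra7 were at 0.06 CPM or below. Several of the 14 NK markers also belong to the lectin-type list above. The summed level of the 14 was 32.7 to 39.6 CPM with IGF-1 and 25.2 to 34.3 CPM without, ranges that overlap. Their most abundant gene was Klrg1, at 9.99 to 13.8 CPM with IGF-1 and 8.002 to 14.1 CPM without, although KLRG1-positive cells were gated out. Of the 6 NK markers tested 0 passed, and 1 had an unadjusted p under 0.05: Prf1, the perforin gene, at 6.80, 4.09 and 5.26 CPM with IGF-1 and 2.58, 1.44 and 2.03 CPM without (1.42, SE 0.42, adjusted p = 0.204). For ILC1 markers, led by Cxcr3, the sum was 327 to 346 CPM with IGF-1 and 348 to 387 CPM without, so it was lower in each library with IGF-1. Of the 8 genes tested 4 had positive and 4 negative log2 fold changes, with a median of -0.07. For each of the 8 the groups overlapped, and 0 passed. The part of such cells in the receptor differences was not tested.

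A list of 7 ILC3 markers, led by the regulator gene Id2, summed to 4242 to 4545 CPM with IGF-1 and 3868 to 3974 CPM without, ranges that do not overlap, and 0 of the 7 passed. Id2 itself was at 2565, 2719 and 2262 CPM with IGF-1 and 1896, 2032 and 1866 CPM without, while 5 of the 7 had negative log2 fold changes and the median was -0.07. The summed level of 6 genes linked to the NKp46-positive subset was 3994 to 4285 CPM with IGF-1 and 2729 to 3719 CPM without. These ranges do not overlap, and nearly all of the sum is Cxcr6, at 4057, 3882 and 4182 CPM with IGF-1 and 3612, 2633 and 2825 CPM without (0.42, SE 0.12, adjusted p = 0.201). Of the 6 genes 3 had positive and 3 negative log2 fold changes, with a median of -0.03, and Notch2 was lower without overlap (16.7, 24.7 and 18.9 CPM with IGF-1 and 28.1, 25.1 and 34.5 CPM without). For 9 genes of lymphoid tissue inducer-like ILC3s, led by Gpr183, the sum was 1080 to 1280 CPM with IGF-1 and 1188 to 1503 CPM without, which overlap. Log2 fold changes were positive for 5 of the 9 and negative for 4. Tnfsf11 was at 34.5, 32.4 and 45.1 CPM with IGF-1 and 22.2, 29.2 and 28.9 CPM without (0.48, SE 0.19, adjusted p = 0.334). In the other direction, Cd4 stood at 18.3, 25.1 and 26.0 CPM with IGF-1 and 35.3, 34.4 and 30.1 CPM without (-0.52, SE 0.18, adjusted p = 0.286), and Nrp1 at 10.0, 21.8 and 14.2 CPM with IGF-1 and 22.4, 23.8 and 22.8 CPM without (-0.58, SE 0.26, adjusted p = 0.426). Lta was also lower, at 214, 309 and 301 CPM with IGF-1 and 483, 368 and 439 CPM without (-0.65, SE 0.16, adjusted p = 0.143). For Tnfsf11, Cd4, Nrp1 and Lta the groups did not overlap. That is 1 higher and 3 lower of the 9, beside 8.81% and 9.17% of all genes. Whether the share of subsets differed between the cultures was not tested.

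Of the T cell markers 4 were tested and 0 passed. Cd3e was at 1.21 CPM or below in each library. Cd3g was at 10.5, 13.9 and 15.6 CPM with IGF-1 and 11.7, 4.30 and 11.1 CPM without (0.56, SE 0.36). Cd3d was at 6.36, 6.00 and 2.27 CPM with IGF-1 and 2.34, 3.29 and 1.42 CPM without (1.05, SE 0.52). The groups overlapped for each of these 3 genes, and the summed list, nearly all of it Trbc2, was at 601 to 794 CPM with IGF-1 and 647 to 844 CPM without. ILC2 markers summed to 10.99 CPM or less, and B cell and myeloid markers, led by Cd79b and Cd68, to 36.4 and 23.1 CPM or less. The B cell gene Ms4a1 had no count in any library. Epithelial markers summed to 14.8 to 22.2 CPM with IGF-1 and 33.3 to 48.5 CPM without. Nearly all of that was Epcam, which fell with IGF-1 (-1.13, SE 0.20, adjusted p = 0.0442), while Krt20 and Fabp2 were at 0.28 CPM or below. The stromal and endothelial list was led by Pecam1, at 76.5 to 83.9 CPM with IGF-1 and 84.7 to 110 CPM without. Over all marker lists 57 genes were tested, and Epcam was the sole one that passed.

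The genes whose profiles over the 6 libraries were most like those of the 3 receptors were sought among 8335 genes with a mean of at least 10 CPM, leaving out the 9 receptors themselves. The measure was the root mean square difference between log2 profiles, each centred on its own mean. For Ncr1 the nearest outside the 9 were Idi1 (0.15), an enzyme of sterol synthesis, Slc16a6 (0.17) and Podnl1 (0.19). For Cd160 they were Ppp1r14c (0.14), the ERK phosphatase gene Dusp6 (0.15) and Slc16a6 (0.25). For Cd244a they were Slc16a6 (0.14), the tubulin gene Tubb6 (0.14) and Podnl1 (0.14). Slc16a6, from a family of monocarboxylate transporters, was near all 3 and stood at 23.4, 28.1 and 22.7 CPM with IGF-1 and 11.2, 10.7 and 10.3 CPM without. All 6 libraries and both groups enter this measure, so genes with a like difference between the groups rank near each other.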

How the data were processed

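The authors deposited whole-number counts for each gene in 6 libraries. Libraries were made with SMART-Seq HT reagents, per the labels. The submitters' processing notes name featureCounts 1.5.3, SAMtools 1.15.1, HISAT2 2.2.1 and fastp 0.23.2, and the build GRCm39. The sources used here state no annotation release, strand setting or rule for multi-mapping reads. IFN-γ in the control cultures is stated in the series' design text.

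Genes were kept by filterByExpr (minimum count 10, minimum total 15), and 13483 of 33157 rows remained. The test was edgeR 4.0.16 under R 4.3.3 (TMM scaling, estimateDisp, glmQLFit, glmQLFTest, group as the only term), with Benjamini-Hochberg adjustment over all of them and calls at an adjusted p under 0.05. The SE is the log2 fold change divided by the square root of F. The test was checked on simulated data. Alternatives were other scalings, filters and thresholds, a replicate block, DESeq2 1.42.0, limma-voom (limma 3.58.1) and leaving out each library.

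The 9 genes and all lists were chosen with earlier results of these data known. A listed gene is not reported here, and list counts leave it out. Named genes were the 9, a fixed set of adaptors, ligands and factors, and per list every called gene and the 3 with the smallest p at a mean of at least 1 CPM. From marker lists the most abundant gene, called genes and genes at 0 were named. Likeness used log2 CPM with a prior count of 2. Cd3d, Cd3e, Cd3g, Cd4, Nrp1, Lta, Tnfsf11, Tigit, Lair1, Klri2, Prf1, Clec2d, Clec2i and the other low markers given were named after their values were seen. Promoters are from RefSeq (GRCm38.p6), and the motif search was not part of the planned design.

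Library pairs within a group differed by far more than sampling noise (chi-square per degree of freedom 38.5 to 88.7). The kit's protocol as labelled names no molecular identifiers, so reads may repeat a molecule and no counting intervals are given.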

Additional observations from a re-analysis of the deposited data

How the results depend on the processing

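The fold changes of Ncr1, Cd160 and Cd244a kept their direction in every alternative run. The number of receptors called higher stayed at 3 with 3 other scalings, DESeq2, limma-voom, both other filters and an adjusted p under 0.1, was 1 at an adjusted p under 0.01, and ranged from 0 to 3 with 1 library left out. Over all genes, 210 were higher and 271 lower with DESeq2, 171 and 258 with no filter, 63 and 115 with at least 10 CPM in 3 libraries, 57 and 87 at an adjusted p under 0.1, and 1 and 1 at 0.01. With limma-voom 36 were higher and 60 lower. With 1 library left out, 0 to 24 were higher and 0 to 31 lower. In the 5 other lists, where 0 genes were higher and 1 lower, the counts higher and lower were 3 and 2 with DESeq2, 2 and 3 with no filter, 0 and 2 with the 10 CPM filter and at 0.1, 0 and 0 at 0.01, and 0 and 0 with any 1 library left out. The cause was not tested.

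Over all tested genes, same-numbered libraries did not deviate together (correlations of -0.05, 0.003 and 0.06, beside -0.10 to 0.08 for differently numbered ones). This cannot exclude a pairing that touches some genes only, and the labels do not say what the numbers mark. With the replicate block 3 genes were higher and 5 lower, and 1 receptor (Ncr1, adjusted p = 0.0469) and 0 genes of the other lists in either direction were called. Cd160 then had an adjusted p of 0.0816 and Cd244a of 0.0612.

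Among the receptors, the fixed set of genes and those named by smallest p or call from the 5 lists, signs turned for 3. Genes named after their values were seen, such as Klri2 and Clec2i, were not followed through the alternative runs. Klrd1 was at -0.09, -0.12 and -0.08 without IGF-1 replicate 2, control replicate 2 and control replicate 3 (range -0.12 to 0.42 over the 6 fits). Klrb1b was at 0.0084 and 0.027 without IGF-1 replicate 3 and control replicate 1 (range -0.099 to 0.027), and Tnfrsf14 at 0.01, 0.19 and 0.52 without IGF-1 replicate 1, IGF-1 replicate 2 and control replicate 1 (range -0.72 to 0.52). Precision is limited by 3 libraries a group, and for genes below a few CPM also by their counts.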
